A study of Mus musculus with 24 samples.

Results

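The 41 genes described here are expressed by endothelial cells, the cells that line blood vessels. They were named as a list of known vessel genes among the 18193 genes that the arrays could name. The list was chosen with earlier results of these data known. Counts of its members beside the shares of all genes are therefore a description and not an independent test. They comprise the receptors for vascular endothelial growth factor (VEGF), the angiopoietin and Tie system, Notch, apelin and sphingosine signalling, junction and surface proteins, transcription factors, regulators of clotting and tone, and proteins of the capillary wall. All 41 were found on the array, and each was represented by its brightest probe set, a group of short probes for 1 transcript. Genes of sprouting tip cells, of capillaries and of lymphatic vessels were counted in lists of their own. 3 of the 41 also stand in the tip cell list (Angpt2, Apln and Dll4), 2 in the capillary list (Gpihbp1 and Rbp7) and 1 in the lymphatic list (Flt4).

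Total RNA of epididymal adipose tissue, the fat pad beside the epididymis, and of liver was measured on Affymetrix arrays in 12 mice. Mice lacking GPR120 (KO), a receptor for long-chain fatty acids that is encoded by Ffar4, were compared with wild-type (WT) mice, and mice of each genotype received a normal diet (ND) or a high-fat diet (HFD). Each of the 8 groups of tissue, genotype and diet held 3 arrays from 3 mice, and every mouse gave both tissues. All mice had a mixed 129/Sv and C57BL/6 background. The labels give neither their age nor the time on the diet. The series title links GPR120 to obesity under HFD, which is the question behind the genotype comparison.

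Endothelial cells respond to VEGF, which adipocytes and other cells secrete, through the receptor tyrosine kinases KDR and FLT1, and the angiopoietins act on TEK to steady or loosen the vessel wall. VE-cadherin, claudin 5 and related junction proteins hold the cells together. Transcription factors of the ETS and SOXF families maintain endothelial identity. In adipose tissue the capillary endothelium also takes part in fat storage, because GPIHBP1 carries lipoprotein lipase to the capillary lumen.

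The sequence upstream of the start site is shown for the 5 members whose signal fell most in KO compared with WT fat on HFD, because these members moved together. RefSeq windows were matched for 22 of the 41 genes and gave 27 windows of 250 bases before the start in the GRCm38.p6 build. The 5 windows lie at chr4:149454969-149455218 (minus strand, Rbp7), chr16:85550374-85550623 (minus strand, Cyyr1), chr3:151437632-151437881 (plus strand, Adgrl4), chr5:75978456-75978705 (minus strand, Kdr) and chr17:34564045-34564294 (plus strand, Notch4). Each is written 5′ to 3′ on the strand of its gene, and capitals mark matches on either strand to the ETS motif CNGGAAG or the SOX motif ACAATG.
Rbp7: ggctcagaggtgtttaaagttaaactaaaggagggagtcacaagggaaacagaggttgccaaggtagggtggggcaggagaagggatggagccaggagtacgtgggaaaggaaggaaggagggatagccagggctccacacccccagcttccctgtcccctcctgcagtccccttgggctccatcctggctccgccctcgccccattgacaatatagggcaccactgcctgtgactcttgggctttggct
Cyyr1: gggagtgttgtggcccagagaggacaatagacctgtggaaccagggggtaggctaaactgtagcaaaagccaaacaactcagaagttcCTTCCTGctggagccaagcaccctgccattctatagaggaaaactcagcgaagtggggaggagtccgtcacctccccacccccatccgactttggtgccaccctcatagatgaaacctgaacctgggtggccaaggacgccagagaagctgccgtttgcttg
Adgrl4: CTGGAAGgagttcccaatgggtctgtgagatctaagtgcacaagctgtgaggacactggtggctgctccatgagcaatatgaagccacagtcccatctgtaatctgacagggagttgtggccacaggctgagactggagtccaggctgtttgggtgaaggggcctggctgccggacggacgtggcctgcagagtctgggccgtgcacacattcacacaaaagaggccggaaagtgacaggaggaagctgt
Kdr: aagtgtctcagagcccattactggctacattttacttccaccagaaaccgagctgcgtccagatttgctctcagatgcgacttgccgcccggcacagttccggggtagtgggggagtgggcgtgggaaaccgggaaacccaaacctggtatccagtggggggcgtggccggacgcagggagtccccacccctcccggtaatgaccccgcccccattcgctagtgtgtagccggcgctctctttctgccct
Notch4: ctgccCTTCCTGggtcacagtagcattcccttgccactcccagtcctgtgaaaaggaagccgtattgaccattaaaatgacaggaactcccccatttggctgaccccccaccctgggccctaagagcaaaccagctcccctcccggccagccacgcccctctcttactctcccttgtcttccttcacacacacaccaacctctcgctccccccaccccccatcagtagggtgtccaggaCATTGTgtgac

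The ETS motif CNGGAAG was found in 17 of the 27 member windows (63.0%) and in 26.6% of all 32851 windows of the same length. The SOX motif ACAATG occurred in 2 of the 27 windows (7.4%, against 10.7% of all windows). The GATA motif AGATAA occurred in 1 (3.7%, against 10%). Both strands were searched, and no motif contains another on either strand. Of the printed windows, those of Cyyr1, Adgrl4 and Notch4 each held 1 ETS match, that of Notch4 also held 1 SOX match, and those of Rbp7 and Kdr held no match to these letters. A match is a description of the sequence and was not tested as a binding site.

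Signals are MAS5 values in intensity units, scaled so that the trimmed mean of every array was 100.03 to 100.05. They were compared on the log2 scale with limma, differences are given ± their standard error (SE), and a gene was called where its Benjamini-Hochberg adjusted p over all genes tested was under 0.05. The test took genes whose mean log2 signal was at or above the median probe set's (19.3 intensity units in fat, 12.95 in liver), which kept 39 members in fat and 36 in liver. Tie1 and Dll4 were not tested in fat, nor Tie1, Aplnr, Cd34, Rasip1 and Rbp7 in liver. With 3 arrays in a group, their number limits the precision. In whole tissue, fewer endothelial cells and less RNA per cell cannot be told apart.

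Several arrays stood apart from the others of their group. Transcripts of the epididymis were high on all 6 fat arrays of ND mice, with the signals of 9 genes summing to 38974 to 61056 in WT and 43797 to 54215 in KO mice, against 27.9 to 39.6 in WT mice on HFD. Among KO mice on HFD the same sum reached 5416 in mouse 427 and was 30.4 in the lowest mouse. Sperm transcripts were high in WT mice 686 and 690 on ND (up to 18062 for the sum of 6 genes), and skeletal muscle transcripts in WT mouse 547 on HFD (up to 5710 for 7 genes). Ffar4 signals in fat of mice on HFD were 23.1 to 30.5 in KO and 97.3 to 171 in WT mice. In liver they ran the other way, with 13.5 to 18.3 in KO and 0.55 to 1.63 in WT mice on HFD. On ND the liver signals were 21.5 to 36.8 in KO and 1.07 to 17.3 in WT mice. Whether the Ffar4 probes fall inside the deletion is not known here. Liver arrays held hepatocyte genes, all 9 of which were called lower in WT fat than in WT liver on HFD, against 26.3% of all genes.

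WT fat on HFD stood apart from the other 3 fat groups. It held the highest group mean of 37 of the 39 members tested, and the other 2 members, Angpt2 and Cd34, were highest in KO fat on HFD. WT fat on ND held the lowest mean of 33 members. Relative to the mean of WT fat on ND, the median member stood at log2 2.20, 1.95 and 2.08 on the arrays of WT mice 546, 547 and 560 on HFD. On the arrays of KO mice 427, 428 and 429 on HFD it stood at 0.81, 0.99 and 0.45, and on those of KO mice on ND at 0.38 to 0.41. In liver the median of the 36 members tested stayed between -0.07 and 0.25 on all 12 arrays.

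**Figure D1:**
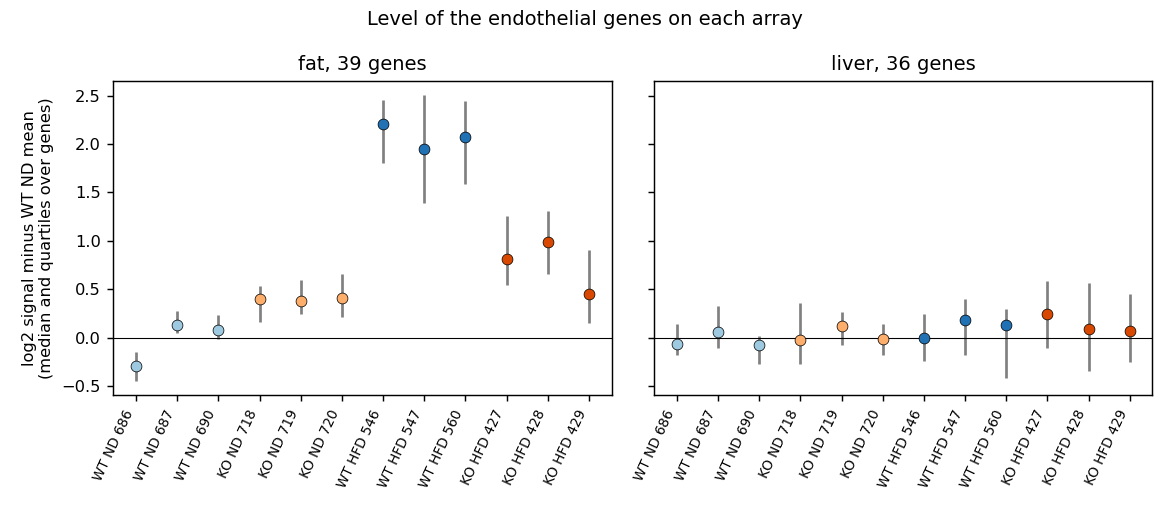
Median (point) and quartiles (bars) over the endothelial genes of the log2 signal minus the mean of the WT ND arrays, for each array of fat (left, 39 genes) and liver (right, 36 genes). The 3 arrays of WT fat on HFD lie at 1.95 to 2.20 and those of KO fat on HFD at 0.45 to 0.99, while all liver arrays lie between -0.07 and 0.25.

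On HFD, 33 of the 39 members tested in fat were lower in KO than in WT mice and 0 were higher (limma). Over all 11613 genes tested, 11.4% were lower and 11.1% higher. At an unadjusted p under 0.05, 36 members were lower and 0 higher, and the share of all genes at that threshold was not counted. The groups did not overlap for 34 of the 39 members, against 38.0% of all genes. The median member difference was log2 -1.17, and that of all genes -0.03. Within KO mice on HFD the member genes ranked the arrays unequally, since mouse 429 was lowest for 28 members and mouse 428 highest for 27. Without mouse 429, 29 members were called. Further probe sets were counted where their mean log2 signal reached the level of tested genes, and dimmer ones were left out. Of 16 such probe sets for 11 of these genes, 14 had the same sign of the difference, and those of Aplnr and Fli1 had the opposite sign.

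All 3 VEGF receptors fell. Kdr encodes the main signalling receptor for VEGF-A, and its fat signals on HFD were 130, 204 and 227 in KO mice and 625, 651 and 747 in WT mice. No KO array came near the WT range, and the difference was log2 -1.88 ± 0.23 (SE, 3 mice per group; limma adjusted p = 0.000657). Flt1, which encodes a receptor that binds VEGF-A tightly and signals weakly, gave 115, 128 and 140 in KO and 244, 261 and 267 in WT mice, a difference of -1.01 ± 0.21. Flt4, the receptor of VEGF-C that marks lymphatic endothelium in adults, was more variable, with 31.5, 69.8 and 107 in KO and 113, 181 and 230 in WT mice. Its highest KO array lay just under the lowest WT array (log2 -1.44 ± 0.38, limma adjusted p = 0.0188).

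**Figure D2:**
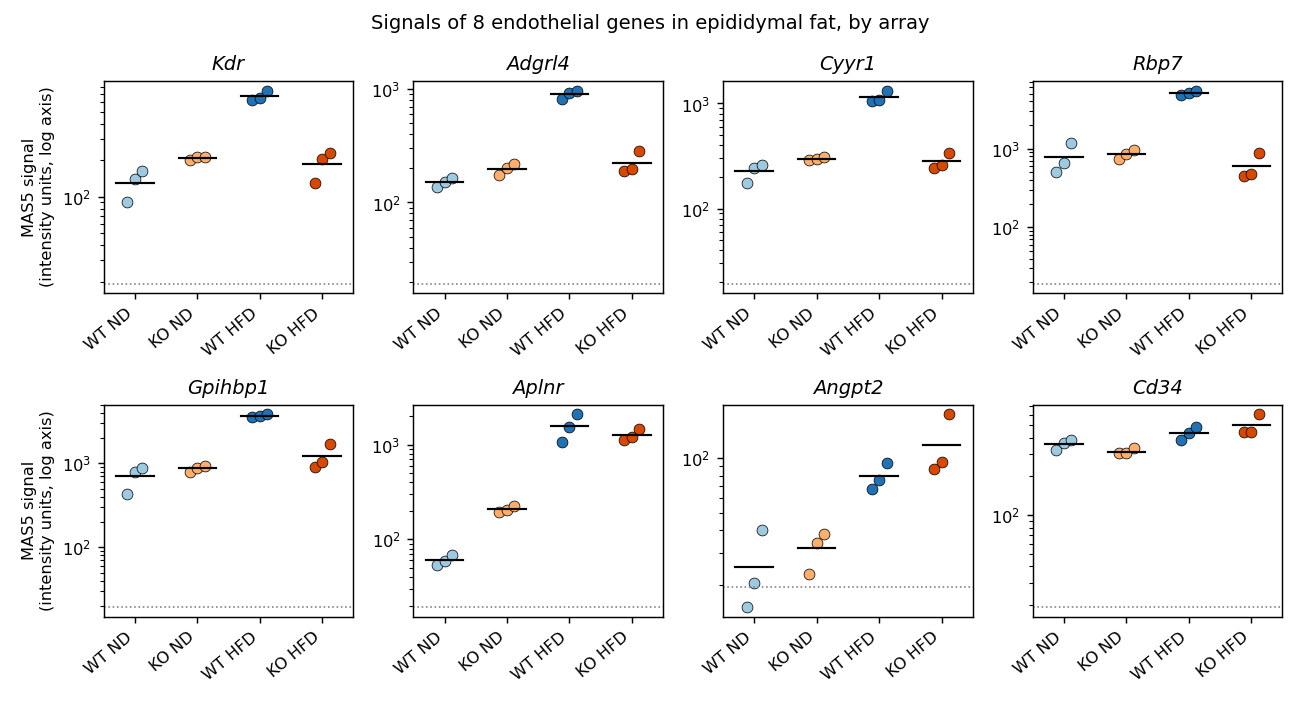
MAS5 signal (intensity units, log axis) of 8 endothelial genes on each fat array, with 3 points per group and a bar at the group mean; the dotted line is the level of the median probe set, 19.3. Kdr, Adgrl4, Cyyr1, Rbp7 and Gpihbp1 lie higher in WT mice on HFD than in the other 3 groups, whereas Aplnr, Angpt2 and Cd34 overlap between KO and WT mice on HFD.

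Within the angiopoietin system, the receptor passed the test and the ligand did not. Tek, the receptor of the angiopoietins, gave 213, 214 and 264 in KO and 371, 440 and 456 in WT fat on HFD, and fell by 0.88 on the log2 scale (SE 0.12, limma adjusted p = 0.000972). Ptprb, the endothelial phosphatase that removes phosphate from TEK, fell by 1.5, from 1179 to 1381 in WT to 337 to 595 in KO mice. Angpt2, the ligand that destabilises vessels, gave 87.2, 94.9 and 174 in KO and 67.7, 75.8 and 93.7 in WT mice. These ranges overlapped, and the log2 difference of 0.53 ± 0.37 did not pass (limma adjusted p = 0.343). Tie1, an orphan receptor related to TEK, was not tested because its mean over all 12 fat arrays was too low. On HFD its signals were 8.84, 22.3 and 22.4 in KO and 29.4, 31.4 and 50.9 in WT mice, and on ND it was below 19.3 on every array.

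The 3 tested members of the endoglin, Notch and Robo group fell by 1.57 to 1.68. Eng encodes endoglin, a co-receptor for BMP9 and TGF-β, and gave 134, 157 and 170 in KO against 416, 527 and 539 in WT mice on HFD. Notch4 is a Notch receptor of vascular endothelium, with 80.0, 137 and 178 in KO and 355, 401 and 456 in WT mice. Robo4, which stabilises the vessel barrier, gave 60.1 to 112 in KO and 217 to 354 in WT mice. The Notch ligand Dll4, not tested for its low mean over all fat arrays, gave 10.95, 23.5 and 27.4 in KO and 21.4, 34.7 and 43.1 in WT mice on HFD, which overlapped, and was below 19.3 on every ND array.

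Of the 5 tested genes for apelin, sphingosine 1-phosphate and adhesion receptors, 2 fell. Adgrl4, an adhesion receptor of vascular cells first named ELTD1, fell by 2.03 (SE 0.16, limma adjusted p = 0.000137), with 191, 198 and 285 in KO and 822, 922 and 966 in WT mice. Adgrf5 fell by 1.17. The apelin receptor Aplnr gave 1113, 1202 and 1468 in KO and 1072, 1546 and 2078 in WT mice, which overlapped (log2 -0.27 ± 0.21, limma adjusted p = 0.387). Its ligand Apln gave 28.4 to 47.4 in KO and 53.0 to 77.2 in WT mice (log2 -0.77 ± 0.28, limma adjusted p = 0.0745), and S1pr1 gave -0.59 ± 0.22 (limma adjusted p = 0.0749).

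Junction and surface proteins formed the largest group, and 12 of its 13 members fell. Cdh5 encodes VE-cadherin of the adherens junction, and its signals were 235, 388 and 431 in KO and 793, 830 and 902 in WT fat on HFD (log2 -1.31 ± 0.23, limma adjusted p = 0.00277). The tight junction gene Cldn5 gave 309 to 601 in KO and 978 to 1265 in WT mice. Pecam1, an adhesion molecule of endothelium that platelets and leukocytes also carry, gave 49.7, 91.4 and 92.2 in KO and 160, 172 and 192 in WT mice. Cyyr1, a gene of unsettled function, fell by 2.05 (SE 0.17), from 1067, 1077 and 1324 in WT to 240.4, 261 and 341 in KO mice. Rasip1, which supports the opening of vessel lumens, averaged 18.6 in KO mice, under the level of tested genes, and 57.6 in WT mice, so it was at least 2.99-fold lower. The other members that fell (Esam, Icam2, Emcn, Clec14a, Mmrn2, Ecscr and Tm4sf1) did so by 0.76 to 1.27, and for each of these 12 genes the KO and WT arrays did not overlap.

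Cd34 was the exception in this group. It encodes a surface glycoprotein of endothelium that adipose stromal progenitors also carry. Its signals were 444, 445 and 606 in KO and 382, 438 and 484 in WT mice on HFD. The groups overlapped, and the log2 difference of 0.19 ± 0.14 did not pass (limma adjusted p = 0.378).

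Among the transcription factors, Sox18, Sox7, Sox17 and Erg fell by 1.45, 1.37, 1.01 and 1.31. Sox18, Sox7 and Sox17 form the SOXF family, which directs vessel development. Sox18 gave 170, 188 and 338 in KO and 524, 528 and 801 in WT mice on HFD. Erg, an ETS factor that maintains endothelial junctions, gave 65.1, 126 and 138 in KO and 235, 249 and 297 in WT mice. Fli1, another ETS factor that blood cells also express, gave 304, 366 and 421 in KO and 434, 596 and 679 in WT mice, and its log2 difference of -0.64 ± 0.27 did not pass although the arrays did not overlap (limma adjusted p = 0.113). The call for Sox7 was the weakest of the 33 (limma adjusted p = 0.0426) and was lost under 10 of 14 alternatives.

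All 4 genes of the group of clotting, vessel tone and secreted factors fell. Nos3, the endothelial nitric oxide synthase, gave 81.4, 150 and 174 in KO and 219, 281 and 354 in WT mice (log2 -1.12 ± 0.26, limma adjusted p = 0.0104). Vwf, which encodes von Willebrand factor, gave 169, 243 and 278 in KO and 325, 414 and 727 in WT mice. Thbd, the thrombin cofactor thrombomodulin, fell by 0.75, and Egfl7, a matrix-associated factor of vessels, fell by 1.10.

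The 3 capillary wall members fell as well, with the largest difference of all 39 in Rbp7. This gene encodes a cellular retinol-binding protein of adipose endothelium, and its signals were 451, 474 and 879 in KO and 4859, 5128 and 5443 in WT mice on HFD. The WT mean was 8.96-fold that of the KO arrays on the log2 scale (log2 -3.16 ± 0.30, limma adjusted p = 0.00024). Gpihbp1 gave 916, 1042 and 1683 in KO and 3545, 3714 and 3843 in WT mice, and fell by 1.66. Plvap, a protein of the diaphragms of fenestrated endothelium, fell by 0.68, but its KO arrays (370.5 to 432) overlapped the lowest WT array (428), and its limma adjusted p was 0.0406. This call was lost under 10 of 14 alternatives.

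**Figure D3:**
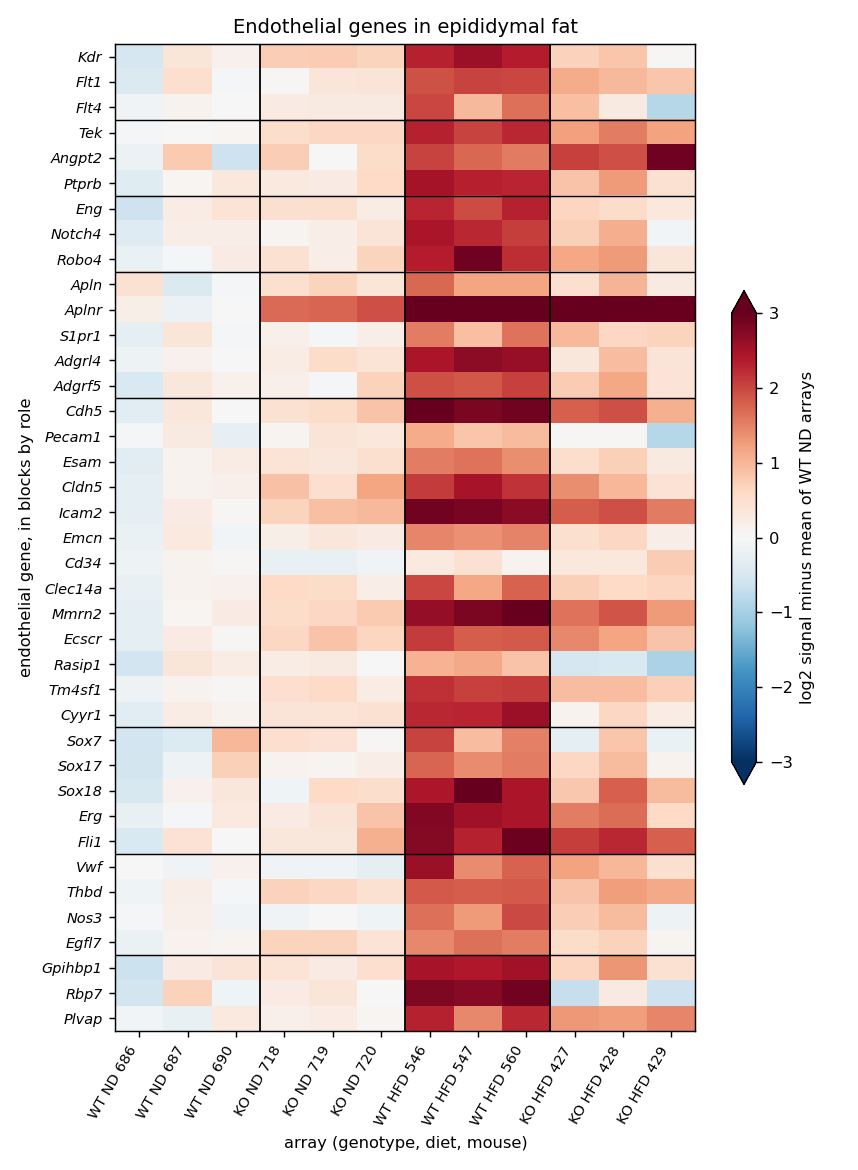
Log2 signal of the 39 tested endothelial genes (rows, in blocks by role) on each of the 12 fat arrays (columns, by genotype, diet and mouse), minus the mean of the 3 WT ND arrays; colours end at -3 and 3. The columns of WT mice on HFD are the darkest red, those of KO mice on HFD are paler, and Aplnr and Angpt2 are red in both.

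Transcripts of other cells moved with this comparison, in which 11.1% of all genes were higher and 11.4% lower. In KO compared with WT fat on HFD, 14 of 15 macrophage genes were higher and 0 lower, and their summed signal was 22144 to 35302 in KO and 9429 to 15301 in WT mice, with no gene of the list below the level of tested genes on every array of either group. Of 13 adipocyte genes 5 were lower and 0 higher, with sums of 22596 to 35035 in KO and 34698 to 37080 in WT mice. Of 14 genes of mural cells, the pericytes and smooth muscle cells around vessels, 4 were lower and 0 higher, with overlapping sums of 5720 to 12850 and 8321 to 10843. Pdgfrb, a defining pericyte gene, averaged 1142 in KO and 1024 in WT mice (log2 0.13 ± 0.19, limma adjusted p = 0.664), while Abcc9 fell by 1.15. The log2 ratio of the 3′ to the 5′ probe set of Actb, a sign of RNA length, was 0.73 ± 0.10 (SD, n = 3) in KO and 1.44 ± 0.28 in WT fat on HFD. The same ratio of Gapdh was -0.09 to -0.05 in KO and -0.001 to 0.21 in WT fat on HFD. The part of macrophages, adipocytes, mural cells and RNA length in the endothelial differences was not tested. Without the arrays of mice 427 and 547, 31 members were called in KO compared with WT fat on HFD, 30 of them among the 33.

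Other vessel genes were described from further lists, some of which share genes with the 41. The capillary list holds Gpihbp1 and Rbp7 of the 41, and the tip cell list Angpt2, Apln and Dll4. Fabp4 and Aqp7 stand in both the capillary and the adipocyte list, and Fabp4 also among the further endothelial genes. Of 32 further endothelial genes tested, 15 were lower and 1 higher in KO than in WT fat on HFD, with a median log2 difference of -0.71. Of all genes tested in this comparison, 11.4% were lower and 11.1% higher. Ushbp1 fell by 1.47, Podxl by 1.43 and Ramp2, a partner of the adrenomedullin receptor, by 1.10, whereas Sparcl1 rose by 0.40. Of 16 capillary genes 8 were lower and 0 higher (median -0.95), and these included Btnl9, with means of 699 in KO and 2358 in WT mice, and the carbonic anhydrase gene Car4, with 245 and 668. Of 13 tip cell genes, which mark sprouting endothelium, 1 was higher, the chemokine receptor Cxcr4 that leukocytes also express (log2 1.01), and 0 were lower (median -0.23). Of 10 arterial and venous genes 4 were lower, among them Sema3g (log2 -1.32).

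Among lymphatic genes 2 of 7 were lower, Flt4 and Lyve1 (log2 -1.08), and Pdpn was higher (log2 2.21). Pdpn encodes podoplanin, which macrophages and stromal cells can also express. Of 19 angiogenic ligands and their partners 7 were lower and 0 higher. Vegfa, the ligand of KDR and FLT1, averaged 161 in KO and 691 in WT fat on HFD (log2 -2.11 ± 0.28, limma adjusted p = 0.000944), and Epas1, a transcription factor of the hypoxia response, fell by 0.85.

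On ND, 1 of the 39 members was called higher in KO than in WT fat and 0 were called lower, against 0.215% and 0.0344% of all genes (0.921% and 0.0258% after centring each array on its median). The difference was above 0 for 36 members, with a median of 0.39 against 0.07 for all genes. At an unadjusted p under 0.05, 14 were higher, and the share of all genes at that threshold was not counted. KO and WT arrays did not overlap for 16 of the 39, against 23.2% of all genes. The called member was Aplnr, with 194, 202 and 228 in KO and 53.2, 59.3 and 67.9 in WT mice (log2 1.79 ± 0.21, limma adjusted p = 0.00569). Cd34 (-0.19), Vwf (-0.16) and Nos3 (-0.07) were the 3 members with a difference under 0, and none of them passed. WT mouse 686 was the lowest ND array of its group for 32 members. Without mice 686 and 690, which carried sperm transcripts, a single WT array remained, which was assumed to vary like the other groups. The Aplnr difference was then 1.96 ± 0.31 and did not pass (limma adjusted p = 0.0766), and over all 14 alternatives it was 1.60 to 1.96.

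In WT fat, HFD was accompanied by higher signals of nearly the whole list. Of the 39 members 38 were higher on HFD than on ND and 0 lower, against 27.9% and 27.4% of all genes (55.3% in either direction). The median member difference was log2 2.01, that of all genes -0.03, and the arrays did not overlap for 37 of the 39, against 61.2% of all genes. Aplnr rose by 4.66 ± 0.21, from 53.2 to 67.9 on ND to 1072 to 2078 on HFD. Cdh5 rose by 2.91, Mmrn2 and Icam2 by 2.82 each, Rbp7 by 2.81 and Fli1 by 2.68. Kdr rose from 90.1, 139 and 163 to 625, 651 and 747, and Tek from 89.0, 90.9 and 95.4 to 371, 440 and 456. Cd34 alone did not pass (log2 0.29 ± 0.14, limma adjusted p = 0.108).

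In KO fat the same diet comparison called 16 members higher and 1 lower, against 22.1% and 26.6% of all genes (48.7% in either direction), with a median of 0.45 against -0.08 for all genes. The arrays did not overlap for 18 of the 39, against 62.2% of all genes. Aplnr rose by 2.59 ± 0.21, from 194 to 228 on ND to 1113 to 1468 on HFD, and Angpt2 by 1.87 ± 0.37, from 23.0 to 38.3 to 87.2 to 174. Fli1 rose by 1.46, Plvap by 1.19, Vwf by 1.06 and Cdh5 by 0.98. Rasip1 was lower on HFD, with an HFD mean under the level of tested genes, by at least 1.66-fold. Kdr did not pass and gave 201, 212 and 214 on ND and 130, 204 and 227 on HFD (log2 -0.19 ± 0.23, limma adjusted p = 0.515), and Eng (0.11 ± 0.23) and Rbp7 (-0.56 ± 0.30) did not pass either. Of the 16 further probe sets that reached the level of tested genes, 12 had the same sign as the one tested. The opposite sign was found for 1 of Flt1, 1 of Adgrl4 and 2 of Egfl7.

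The epididymal transcripts described above were high in both ND groups and moved with both diet comparisons. All 9 epididymis genes tested and all 7 epithelial genes were called lower on HFD in WT and in KO fat. Macrophage genes rose on HFD as well, 12 of 15 in WT and all 15 in KO fat, and their summed signal on ND was 3617 to 4507 in WT and 5337 to 6690 in KO mice. Of 13 adipocyte genes 11 rose on HFD in WT fat, and 7 rose and 1 fell in KO fat, with sums on ND of 14585 to 23761 in WT and 20715 to 21091 in KO mice. The Actb log2 ratio of the 3′ to the 5′ probe set averaged 0.90 on ND and 1.44 on HFD in WT fat. In KO fat it averaged 0.80 on ND and 0.73 on HFD. The same ratio of Gapdh was -0.41 to -0.34 on ND and -0.001 to 0.21 on HFD in WT fat. In KO fat the Gapdh ratio was -0.48 to -0.38 on ND and -0.09 to -0.05 on HFD, so it differed by diet in both genotypes. The part of these tissues, cells and RNA length in the diet differences of the endothelial genes was not tested. Nor was their part in the interaction of genotype and diet. Centring each array on its median in place of its trimmed mean moved the median of all genes by 0.46 in the WT and 0.35 in the KO diet comparison. Centring shifts all genes of an array alike, so the median member relative to that of all genes, 2.04 in WT and 0.53 in KO fat, is the same under both scalings by construction. After centring, 45.0% of all genes were called higher and 13.7% lower in WT, and 33.3% and 14.1% in KO fat. Counts of called members then became 39 in WT and 25 in KO fat.

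The diet effect is taken here with its sign, as HFD minus ND. By the test of the interaction it was lower in KO than in WT fat for 28 of the 39 members and higher for 0 (limma). Over all genes, 7.20% had a called interaction of this sign and 3.76% of the other, which makes 11% in either direction. After centring on the median the shares were 7.75% and 1.93%. The median member interaction was log2 -1.69. At an unadjusted p under 0.05 it was below 0 for 37 members and above 0 for none of the 39. The share of all genes at that threshold was not counted. Rbp7 had the largest interaction (-3.37 ± 0.43, limma adjusted p = 0.0033), followed by Kdr (-2.60 ± 0.33), Cyyr1 (-2.47 ± 0.24) and Adgrl4 (-2.42 ± 0.23). Aplnr, which rose on HFD in both genotypes, had an interaction of -2.06 ± 0.29 (limma adjusted p = 0.00431). Rasip1 was called in both genotypes with opposite signs, log2 1.01 in WT and -0.80 in KO fat. Its call in KO fat was lost under 5 of 14 alternatives.

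Not all members differed in their diet effect. By role, the interaction was called for 12 of 13 junction and surface genes and all 3 of the endoglin, Notch and Robo group. It was called for 2 of 3 VEGF receptors, 2 of 3 tested angiopoietin system genes and 3 of 5 apelin, sphingosine and adhesion receptors. The call also fell on 2 of 5 transcription factors, 2 of 4 clotting, tone and secreted genes and 2 of 3 capillary members. For Angpt2 the diet effects were 1.77 in WT and 1.87 in KO fat (interaction 0.10 ± 0.53, limma adjusted p = 0.921), and for Cd34 0.29 and 0.66 (interaction 0.38 ± 0.20, limma adjusted p = 0.249). Fli1, Vwf and Plvap, with interactions of -1.22, -0.87 and -0.82, did not pass. Without mice 686 and 690, which left 1 WT array on ND that was assumed to vary like the other groups, 17 interactions were called, all of them among the 28. This alternative was chosen after seeing the data, as was leaving out mice 427 and 547, which gave 33.

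**Figure D4:**
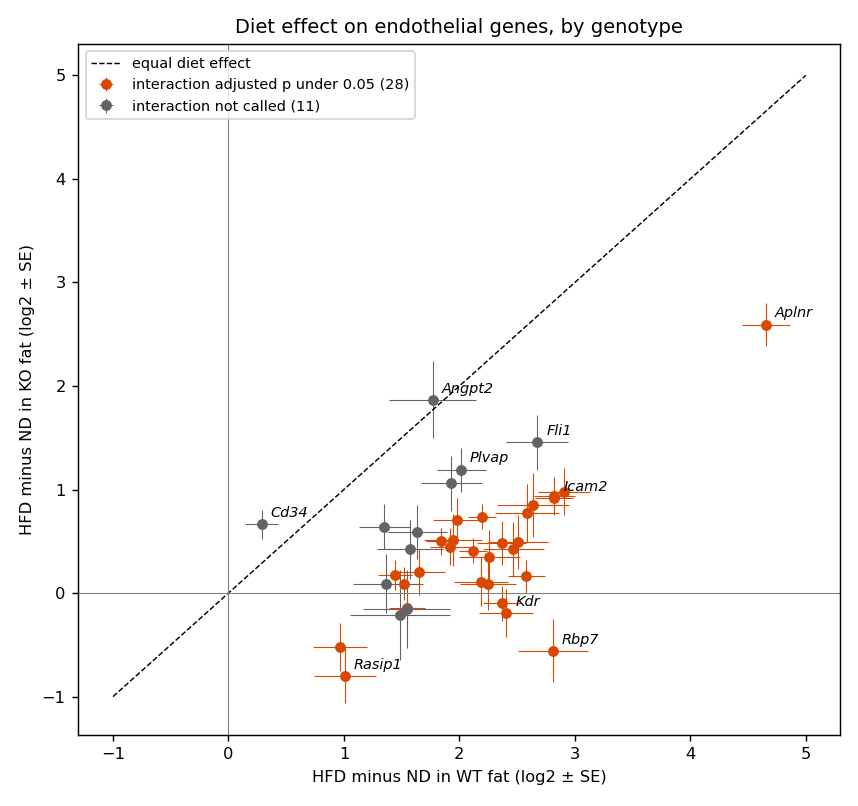
Difference between HFD and ND in WT fat (horizontal axis) and in KO fat (vertical axis) for the 39 tested endothelial genes, both as log2 ± SE; orange marks the 28 genes whose interaction was called, and the dashed line marks equal effects. Nearly all points lie below the dashed line; Angpt2 lies close to it and Cd34 above it.

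Liver gave few differences. On HFD, 1 of 36 tested members was higher in KO than in WT liver and 0 were lower, against 3.73% and 2.98% of all genes (6.71% in either direction), with a median of 0.13 against -0.03 for all genes. After centring on the median, 3.80% and 0.647% of all genes were called. The called member was Pecam1, with 17.1, 23.3 and 25.6 in KO and 3.78, 7.07 and 7.87 in WT mice, all of the latter below the level of tested genes, so it was at least 1.70-fold higher (limma adjusted p = 0.0148). Kdr gave 129, 174 and 196 in KO and 197, 229 and 252 in WT liver, a difference of -0.45 ± 0.17 that did not pass (limma adjusted p = 0.134). Rbp7, the member with the largest fall in fat, was 1.89 to 3.08 in KO and 1.77 to 3.17 in WT liver, far under the level of tested genes.

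On ND, Cldn5 was the called member of 36 in liver, with 68.4, 75.8 and 76.5 in KO and 36.5, 41.1 and 45.9 in WT mice (log2 0.84 ± 0.20, limma adjusted p = 0.0289), against 2.22% of all genes called higher and 2.49% lower, 4.71% in all (2.66% and 0.557% after centring on the median). In WT liver, Pecam1 and Esam were lower on HFD than on ND, 2 of 36 members against 6.04% of all genes called lower and 6.47% higher (2.43% and 5.14% after centring). Pecam1 was at least 1.97-fold lower, and Esam fell by 0.46. In KO liver, Plvap (log2 0.77 ± 0.17, limma adjusted p = 0.00882) and Vwf (log2 0.94 ± 0.28, limma adjusted p = 0.0343) were higher on HFD, 2 of 36 against 9.16% of all genes called higher and 7.37% lower (6.35% and 2.90% after centring). The interaction of genotype and diet was called for 0 of 36 members by limma, against 0.989% of all genes. At an unadjusted p under 0.05 there were 8 members, and the share of all genes at that threshold was not counted. Of these liver calls, that of Plvap held under every alternative. Summed macrophage signals in liver on HFD were 6472 to 7440 in KO and 4673 to 5655 in WT mice. The Actb log2 ratio averaged 1.70 in KO and 2.04 in WT liver on HFD, and 1.29 and 1.18 on ND. The Gapdh ratio was -0.11 to -0.07 in KO and -0.01 to 0.06 in WT liver on HFD. On ND the Gapdh ratio was -0.40 to -0.33 in KO and -0.35 to -0.27 in WT liver. The part of macrophages and RNA length in the liver differences was not tested.

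The genotype effect on HFD differed between the tissues. In a fit of all 24 arrays it was more negative in fat than in liver for 28 of 40 members and less negative for 0, against 6.47% and 4.58% of all genes (5.4% and 1.64% after centring on the median). The median difference was log2 -1.31. Eng, with a difference of -1.24 ± 0.15, had the smallest limma adjusted p (3.67e-05), and Adgrl4 gave -2.0 ± 0.24. This fit took the probe set brightest over all 24 arrays, so its values need not match those of the fits per tissue. Of the 2 Eng probe sets, the one used in the fat fit gave -1.68 for KO compared with WT fat on HFD. The other gave -1.06. For 2 of the 28, Pecam1 and Rbp7, liver signals were below the level of tested genes on every WT HFD array, and for Rbp7 on every KO HFD array too, so their fitted values rest in part on background and give no size of the difference. Angpt2 gave 0.02 ± 0.58 and did not pass. Aplnr and Cd34 were below that level on every liver array of HFD mice, so no comparison of their genotype effect between the tissues is given.

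**Figure D5:**
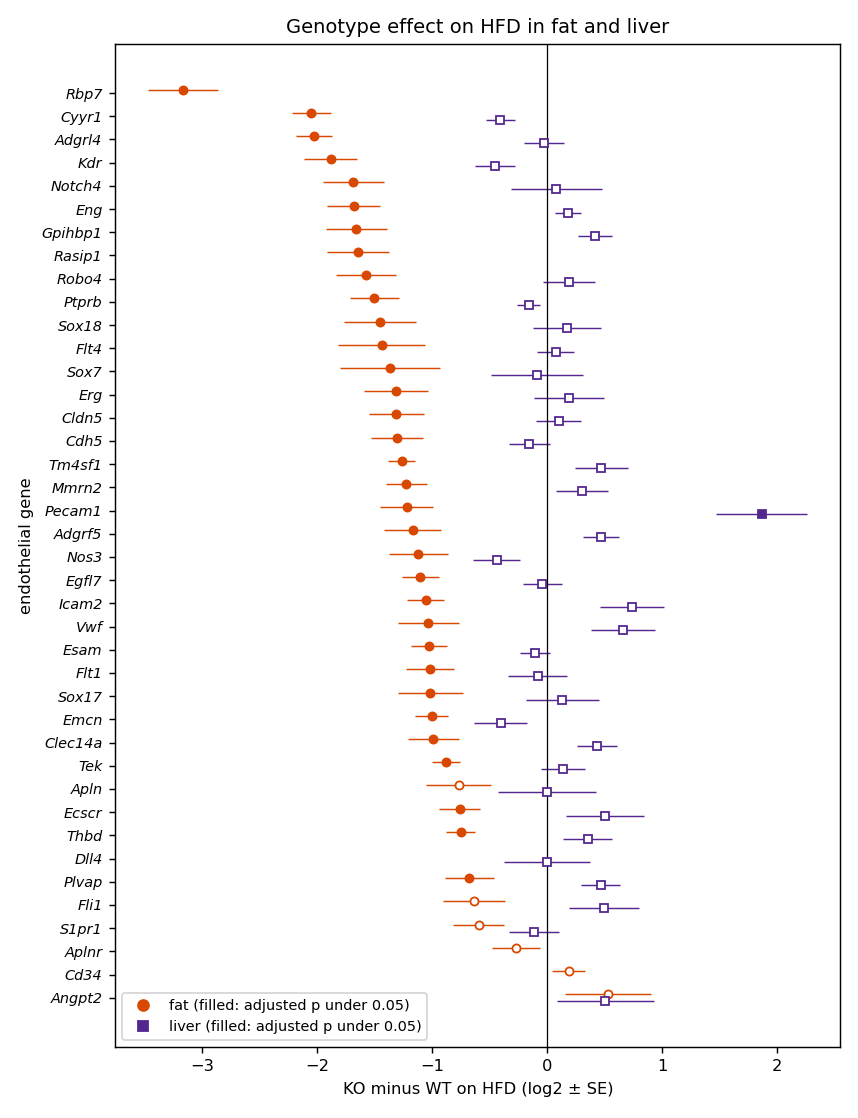
Difference between KO and WT mice on HFD (log2 ± SE) for each endothelial gene tested in fat (orange circles) or liver (purple squares), ordered by the fat value, with filled symbols for limma adjusted p under 0.05. The fat values run from -3.16 for Rbp7 to 0.53 for Angpt2; in liver only Pecam1 is filled.

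Levels of the members also differed between the tissues. In WT mice on HFD, 37 of 40 members were higher in fat than in liver and 0 lower, against 39.4% and 26.3% of all genes, 65.7% in all (31.0% and 29.9% after centring on the median). The 37 include Aplnr, Cd34, Rasip1 and Rbp7, which were too dim for the test in liver. They passed the filter over all 24 arrays only through their fat signals, so the filter itself favoured these calls. The median member difference was log2 3.0 and that of all genes 0.21. The arrays of fat and liver did not overlap for 36 of the 40, against 70.2% of all genes. Rbp7 averaged 5143 in fat and 2.51 in liver, at least 326-fold, and Aplnr 1565 and 5.83, at least 99.1-fold. Cldn5 was higher in fat by 4.52, Notch4 by 4.63 and Sox17 by 4.32, while the differences of Eng (1.02), Ptprb (1.18) and S1pr1 (0.62) were among the smallest called. Flt4 (-0.16 ± 0.30), Clec14a (0.11 ± 0.20) and Dll4 (0.89 ± 0.39) did not pass. Genes of the liver sinusoid, whose endothelium is perforated and lacks a basement membrane, ran the other way, with 8 of 12 lower and 3 higher in fat. Among them Clec4g averaged 4.66 in fat and 1024 in liver, and Stab2 31.6 and 388.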

How the data were processed

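The deposited values are MAS5 signals on a linear intensity scale, and MAS5 is named per the submitters' processing notes, with its version not given in the sources used here. Array medians ran from 13.5 to 25.8. Of 45101 probe sets, 64 controls were left out, 34945 had 1 gene symbol in the platform annotation, 932 several and 9160 none. Per gene the brightest probe set over the arrays of a fit was used. Signals under the 10th percentile (1.08 in fat, 1.1 in liver, 1.09 in both) were raised to it before log2, and genes dimmer than the median probe set were left out, leaving 11613 genes in fat, 11125 in liver and 11454 in the joint fit.

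Groups were taken from the labels. Contrasts were fitted with limma 3.58.1 (R 4.3.3) over all arrays of a tissue, or over all 24, with a variance trend and Benjamini-Hochberg adjustment. The script was tested on simulated data. Figures used matplotlib 3.10.9. Mice are separate animals. Fat and liver of 1 mouse deviated together only weakly (correlations 0.0180 to 0.0753, none of 12 over 0.1), although the labels tie them to the same mouse. The members and lists were chosen with earlier results of these data known. Any member may be named; of other lists, up to 4 genes of smallest p, defining markers, and genes chosen after their values were seen where a count was 5 or fewer. Alternatives covered normalization, scaling, filter, floor, probe set choice, the arrays in the fit and arrays left out.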

Additional observations from a re-analysis of the deposited data

Results flagged for a closer look

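The effect of HFD against ND differed between KO and WT fat for 28 of the 39 members tested, by the limma interaction term. The quantity given for each is that interaction on the log2 scale, KO minus WT, and all are below 0. In VEGF receptors it came to -2.60 for Kdr and -1.27 for Flt1. For the angiopoietin system it was -1.46 for Tek and -1.89 for Ptprb. For the endoglin, Notch and Robo group it was -2.07 for Eng, -1.91 for Notch4 and -2.01 for Robo4. For the apelin and adhesion receptors it was -2.06 for Aplnr, -2.42 for Adgrl4 and -1.43 for Adgrf5. For the junction and surface genes it was -1.93 for Cdh5, -1.48 for Pecam1, -1.43 for Esam, -2.17 for Cldn5, -1.91 for Icam2, -1.26 for Emcn, -1.45 for Clec14a, -1.88 for Mmrn2, -1.47 for Ecscr, -1.81 for Rasip1, -1.71 for Tm4sf1 and -2.47 for Cyyr1. Among the transcription factors it was -1.79 for Sox18 and -1.82 for Erg. In the clotting, tone and secreted genes it came to -1.34 for Thbd and -1.69 for Egfl7. For the capillary members it was -2.04 for Gpihbp1 and -3.37 for Rbp7.

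The difference between KO and WT mice on HFD was not the same in fat and liver for 28 of 40 members, by the limma contrast of the 2 tissues. The log2 value is the genotype difference in fat minus that in liver. Among VEGF receptors it was -1.43 for Kdr, -1.66 for Flt1 and -1.52 for Flt4. In the angiopoietin system it came to -1.01 for Tek and -1.34 for Ptprb. In the endoglin, Notch and Robo group it came to -1.24 for Eng, -1.76 for Notch4 and -1.76 for Robo4. For the apelin and adhesion receptors it was -2.0 for Adgrl4 and -1.64 for Adgrf5. In the junction and surface genes it came to -1.15 for Cdh5, -3.09 for Pecam1, -0.92 for Esam, -1.41 for Cldn5, -1.80 for Icam2, -1.42 for Clec14a, -1.53 for Mmrn2, -1.27 for Ecscr, -1.74 for Tm4sf1 and -1.64 for Cyyr1. For the transcription factors it was -1.62 for Sox18 and -1.50 for Erg. For the clotting, tone and secreted genes it was -1.69 for Vwf, -1.10 for Thbd and -1.06 for Egfl7. For the capillary members it was -2.07 for Gpihbp1, -3.18 for Rbp7 and -1.14 for Plvap. The liver signals of Pecam1 in WT mice and of Rbp7 in both genotypes were below the level of tested genes on every HFD array, so the values of these 2 genes are fitted against background and are not sizes of a difference. No group held enough arrays for a search for single outlying samples, since each group has 3.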

How the results depend on the processing

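Most counts in fat held under the alternatives. For KO against WT fat on HFD, 28 to 33 members were called under the other settings and 29 to 34 when each array was left out in turn, with 26 of the 33 kept under every one. Flt4, Cdh5, Sox7, Sox17, Sox18, Vwf and Plvap each lost the call at least once, Sox7 and Plvap under 10 of 14 alternatives each, Flt4 and Sox17 under 4, Vwf under 2, and Cdh5 and Sox18 under 1. For the diet effect in WT fat the counts were 34 to 40, the range including a fit without the filter that tested more members, and 37 to 38 leaving out an array. For that in KO fat they were 13 to 25, and 12 to 20 leaving out an array, with 11 of 17 kept under every setting. The interaction gave 25 to 31 calls leaving out an array, and 17 without mice 686 and 690, the lowest of all settings. Of its 28 calls 16 were kept under every setting, and Flt1, Notch4, Robo4, Adgrf5, Cdh5, Pecam1, Clec14a, Ecscr, Rasip1, Cyyr1, Sox18 and Erg each lost theirs at least once. The genotype effect in fat minus that in liver gave 24 to 28 calls, with 22 of 28 kept under every setting. There Ecscr lost its call under 11 of 21 alternatives, Flt4 under 8, Sox18 and Erg under 5 each, and Notch4 and Cdh5 under 1. For KO against WT fat on ND, quantile normalization gave 3 calls, centring on the median 5, leaving out an array 1 to 4, and leaving out mice 686 and 690 together 0. In KO fat, the diet difference of Tm4sf1 turned to -0.060 when the mean of all its probe sets was taken, and the cause was not tested.

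Liver counts rested on few calls. Without the filter on dim probe sets, 0 members were called for KO against WT on ND, 1 for diet in WT and 1 for diet in KO liver. With only the arrays of the groups compared in the fit, 0 were called for KO against WT on HFD, 0 for diet in WT and 4 for diet in KO liver. Leaving out an array gave 0 to 1 calls on HFD, 0 to 1 on ND, 1 to 3 for diet in WT, 1 to 2 for diet in KO and 0 to 1 for the interaction. With the mouse as a replicate block, 28 members were called for the genotype effect in fat minus that in liver and 38 for fat against liver. Without the block these counts were 28 and 37. Within a tissue no mouse is shared, so no block could be fitted. Signals near background, such as those of Pecam1 in liver, limit what these arrays resolve.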
